A study of Mus musculus with 4 samples.

Results

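The genes described here encode the subunits of voltage-gated sodium and calcium channels. They were chosen by name, as symbols of the Scn series followed by a number and a or b and of the Cacna, Cacnb and Cacng series followed by a number. Of 19938 genes represented by probe sets with exactly 1 symbol, 35 met this rule, 11 for sodium and 24 for calcium channels. The mouse reference table holds 40 genes of this naming, and the other 5 were not analysed here. Each gene was represented by its probe set with the highest mean over the arrays.

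Hypothalamic RNA came from male CDF1 mice (BALB/c by DBA/2) aged 10 to 11 weeks, killed 20 days after subcutaneous injection of C26 cells, a mouse colon adenocarcinoma line that causes cachexia. The study's pilot part, given here, compared rising numbers of injected cells with sham injection of 0.2 ml of Hanks' balanced salt solution, the vehicle that all groups received. The control array held pooled RNA of 4 mice, and the arrays of mice given 500000, 1000000 and 2000000 cells (0.5M, 1M and 2M) held RNA of 4, 3 and 1 mice. With 1 array per group, differences at 1 cell number had no replicate check, and the 2M array represents 1 mouse despite a title that speaks of pooling.

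Voltage-gated sodium channels carry the rising phase of the action potential, through a large pore-forming alpha subunit joined by small single-pass beta subunits that set surface number and gating. Voltage-gated calcium channels turn depolarisation into calcium entry, which drives transmitter and peptide release, pacemaking and gene regulation. Their pore subunits fall into P/Q, N, R, L and T types, and the types other than T bind an intracellular beta subunit and an extracellular alpha2delta subunit that bring them to the membrane. Most gamma subunits of brain are better known as partners of AMPA-type glutamate receptors.

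Levels and differences are log2 values after RMA, so a difference of 0.5 log2 is 1.41-fold. Genes whose mean over the arrays reached 6.59 log2, the 40th percentile, were tested, and 29 of the 35 channel genes did so. The arrays correlated at 0.984 to 0.994. Hypothalamic markers were present in every array, with a list mean of 8.90 log2 in sham mice, then 9.13, 9.17 and 9.22 with rising cell number. Of the 17 genes 12 were higher in all 3 tumour-bearing arrays (33.2% of all genes), and of the 16 tested 8 had an unadjusted p under 0.05 as higher (6.19% of all tested genes) while 0 passed limma after adjustment. Their part in the channel values was not tested. The pituitary marker list averaged 7.19 log2 at 0.5M against 6.11 in the control (9 genes, 7 higher in all 3 tumour-bearing arrays). Gh and Prl, at 4.68 and 3.85 log2 above control at 0.5M, stood apart from the other 7, which differed by -0.20 to 0.40 there. The striatal marker list averaged 9.52 log2 at 0.5M against 9.08 in the control (7 genes, 4 higher in all 3). Midbrain and hindbrain markers averaged 7.25 log2 in sham mice, then 6.95, 6.84 and 6.90 with rising cell number. Of these 10 genes, 4 of which were tested, 8 were lower in all 3 arrays, where 22.5% of all genes were. Oligodendrocyte markers averaged 9.42 log2 in sham mice, then 9.33, 9.58 and 9.15 with rising cell number. Microglia markers averaged 7.63 log2, then 7.57, 7.70 and 7.47, so both lists were highest at 1M and lowest in the single 2M animal. Means of other marker lists ranged over the 4 arrays from 10.11 to 10.21 log2 for astrocytes and 8.09 to 8.21 for vascular cells. The part of these cell types in the channel values was not tested. In bulk tissue, fewer cells of a type and less RNA per cell cannot be told apart.

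By the probe set that stands for each gene, most channel transcripts read close to control at every cell number, and none of the tested genes passed limma. At 1M some other probe sets of Scn2a lay farther off, the lowest at -1.09 log2. In the comparison of the 3 tumour-bearing arrays with control, 0 of 29 passed after Benjamini-Hochberg adjustment (0.0502% of 11963 genes passed as higher and 0% as lower), with limma adjusted p from 0.488 to 0.995. At an unadjusted p under 0.05 there were also 0, where 10.8% of all tested genes lay. In the limma trend with cell number 0 of 29 passed, as did 0% of all genes in either direction. Scn2b and Scn4b, both downward, had an unadjusted p under 0.05, a share of 2 in 29 beside 3.18% downward and 6.52% in either direction over all genes. The limma test had 2 residual degrees of freedom, and its 95% intervals reached from -0.78 to 0.51 log2 at their outermost, for Scn4b.

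By the probe set that stands for each gene, differences were mostly small and ran both ways. The median over the 35 genes was 0.03 log2 at each of 0.5M, 1M and 2M, beside -0.01, 0.07 and 0.03 for all genes. Cacna2d1 at 1M was the 1 value at least 0.5 log2 from control among the 35 genes in the 3 arrays, where 1.59% of all genes were that much lower and 3.21% that much higher at 1M, 0.697% and 0.692% at 0.5M, and 1.23% and 1.78% at 2M. At a threshold of 0.25 log2, 2 channel genes were higher and 0 lower at 0.5M (6.7% and 7.8% of all genes), 5 and 3 at 1M (21.1% and 8.21%) and 2 and 3 at 2M (13.2% and 8.48%). None was that far on one side in all 3 arrays (3.37% of all genes higher, 1.98% lower), and none was 1 log2 lower at 1M (0.0802%). In all 3 tumour-bearing arrays 11 genes lay above control and 9 below, close to the background of 33.2% and 22.5%. All 11 of the former were calcium channel genes, 3 of them below the filter. Cacng2, 1 of the 11, has a second probe set below control in all 3 arrays. Among the 29 tested genes 8 lay above and 8 below in all 3, beside 33.4% and 27.3% of all tested genes. Of the 11 sodium channel genes, 5 lay below control in all 3 arrays and 0 above, and all 9 that were tested lay below at 1M, where 43% of all tested genes did. At levels of 8 to 10 log2, where most of these 9 lay, 2717 of 5833 genes lay below control at 1M, and at 10 to 12 log2 766 of 1428. At 6.59 to 8 log2, the level of Scn4b, 1612 of 4602 did, and above 12 log2, the level of Scn2a, 55 of 100. The differences of the 3 tumour-bearing arrays share the control array, so a single deviation of that array moves all of them.

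**Figure D1:**
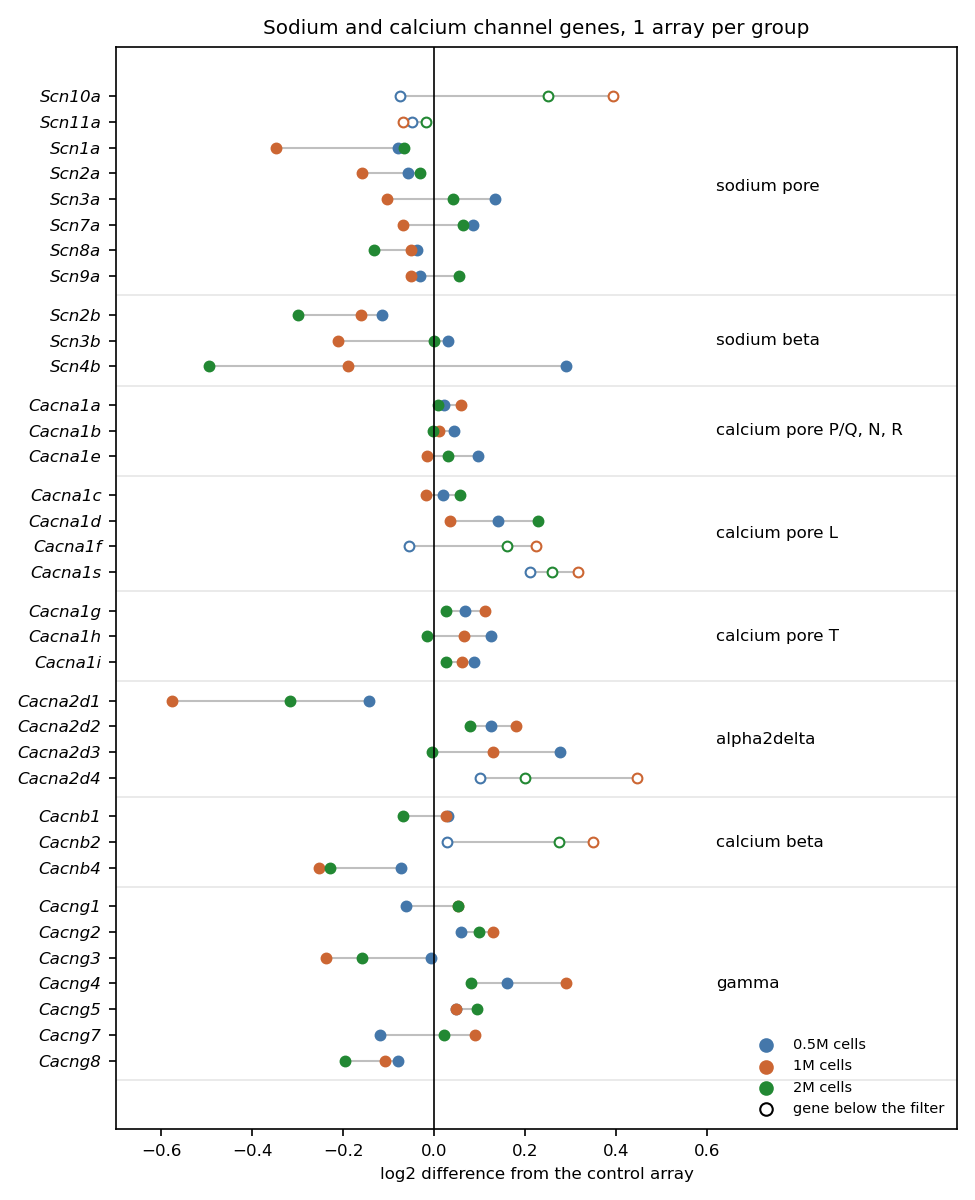
Log2 difference of each tumour-bearing array from the control array (horizontal axis) for the 35 channel genes, grouped by subunit role, with 1 point per array and open points for the 6 genes below the filter. Most points lie within 0.25 log2 of 0; Cacna2d1 at 1M (-0.58) and Scn4b at 2M (-0.49) lie farthest out.

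The 6 tested sodium channel pore genes lay slightly below control at 1M. Scn1a encodes the main channel of many inhibitory interneurons. Its levels were 9.52 log2 in the control array and 9.44, 9.17 and 9.46 at 0.5M, 1M and 2M, so the 1M array stood apart and the other arrays lay within 0.08 log2 of control. The mean difference was -0.17 ± 0.16 log2 (SD over the 3 tumour-bearing arrays, limma adjusted p = 0.666, 95% interval -0.49 to 0.16). Without the 1M array it was -0.07. Scn8a, the channel of nodes of Ranvier, read 9.52, 9.48, 9.47 and 9.39 log2 in the same order of arrays, a mean difference of -0.07 ± 0.05 log2 (limma adjusted p = 0.802). Scn3a, best known from the embryonic brain, read 8.03, 8.16, 7.92 and 8.07 log2. It lay on both sides of control, at a mean of 0.02 ± 0.12 log2 (limma adjusted p = 0.956), or -0.03 without the 0.5M array.

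Scn9a, a pore gene best known from pain-sensing neurons, differed from control by -0.03, -0.05 and 0.05 log2 at 0.5M, 1M and 2M. Its second probe set, of lower mean level, differed by 0.19, -0.13 and 0.10, on the other side of control at 0.5M. Scn7a, which encodes the sodium-level sensor of circumventricular organs, differed by 0.085, -0.07 and 0.06. Neither passed limma (adjusted p = 0.979 and 0.941). In the reference annotation Scn3a and Scn2a are direct neighbours on chromosome 2, as are Scn1a, Scn9a and Scn7a, with 3 other coding genes between the groups. All 5 of these clustered genes lay below control at 1M, by 0.05 to 0.35 log2 in size, where 43% of all tested genes lay below, whereas at 0.5M and 2M they lay on both sides.

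Scn2a, the pore gene of excitatory axons, is covered by 14 probe sets. The one that stands for the gene read 12.50 log2 in the control array and 12.45, 12.34 and 12.47 at 0.5M, 1M and 2M. Its mean difference was -0.08 ± 0.07 log2 (limma adjusted p = 0.786, 95% interval -0.32 to 0.15). The other probe sets disagreed with it in size. At 1M, 13 of the 14 lay below control, where 37.4% of all 21789 single-symbol probe sets did. Of the 14, 5 lay at least 0.5 log2 below control at 1M, against 2.19% of all. Probe set 10472366 showed the widest gap, at 9.51, 9.33, 8.42 and 9.30 log2 in the 4 arrays. Probe set 10472370 followed with 9.78, 9.52, 8.84 and 9.13, and 10472368 with 10.11, 9.89, 9.23 and 9.84. All 3 were lowest at 1M and below control in each tumour-bearing array. At the other end, 10472382 read 9.57, 9.62, 9.60 and 9.61, above control throughout.

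The median over the Scn2a probe sets was -0.04 at 0.5M, -0.31 at 1M and -0.10 at 2M (log2). Averaged over them the gene's mean difference was -0.20 ± 0.19 log2, larger in size than the -0.08 of the single probe set. It did not pass limma (adjusted p = 0.639). Probe sets of 1 gene share their RNA and are not replicates. Among the 24 genes with at least 10 probe sets, 9 had a wider range at 1M than the 1.12 log2 of Scn2a, and 2 had a lower median.

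**Figure D2:**
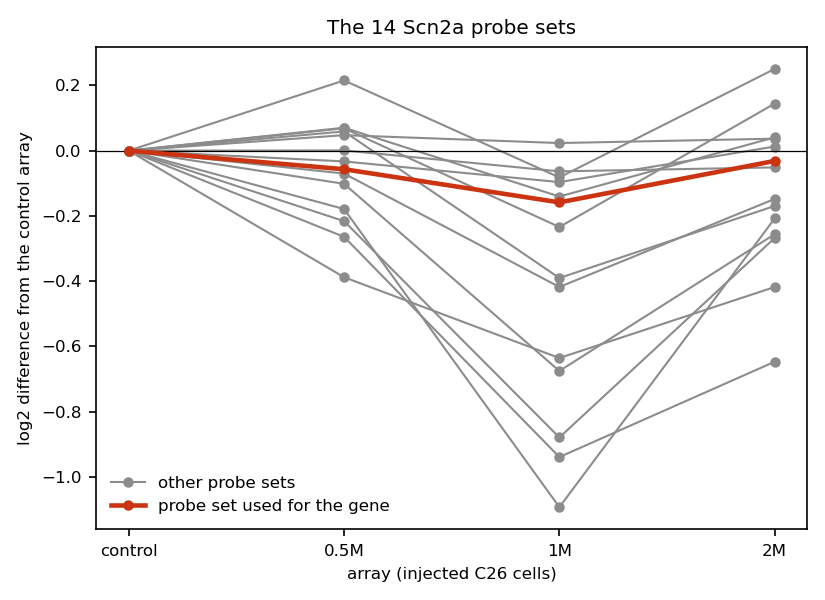
Log2 difference from the control array (vertical axis) of the 14 Scn2a probe sets in the 4 arrays (horizontal axis), with the probe set that stands for the gene in red and the others in grey. Several grey lines drop by more than 0.5 log2 at 1M, the lowest to -1.09, while the red line reaches -0.16.

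Among the sodium channel beta genes, Scn2b and Scn4b were lowest at 2M and Scn3b at 1M. Scn4b encodes a beta subunit that is abundant in striatal projection neurons and supports resurgent sodium current. It read 7.03 log2 in the control array and 7.32, 6.84 and 6.53 at 0.5M, 1M and 2M, so the 0.5M array was the highest of the 4 and the 2M array the lowest. The slope was -0.31 ± 0.10 log2 per 1M cells (SE, limma unadjusted p = 0.0147, adjusted p = 0.713), with a 95% interval of -0.55 to -0.08. It was -0.25 without the 0.5M array, -0.31 without the 1M array and -0.19 without the 2M array, with unadjusted p of 0.0124, 0.0046 and 0.378, so of these 3 removals that of the single 2M animal took it past 0.05. The mean difference from control was -0.13 ± 0.40 log2 (limma adjusted p = 0.879), and it changed sign to 0.05 without the 2M array.

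Striatal markers are set beside Scn4b because it is abundant there. Of the 7 measured, Ppp1r1b differed by 0.87, 0.25 and 0.34 log2 in order of cell number, and Pde10a by 0.84, 0.26 and 0.17. Rgs9 differed by 0.48, 0.19 and 0.21 and Drd1 by 0.43, 0.05 and 0.07, both above control in each tumour-bearing array. Tac1 differed by 0.08, -0.40 and -0.21, on the same sides of control as Scn4b. Drd2 differed by 0.21, 0.004 and -0.04, and Penk by 0.20, -0.05 and 0.09. The list had medians of 0.43, 0.05 and 0.09, beside -0.01, 0.07 and 0.03 for all genes. Tac1, Drd2 and Penk were named after their values were seen. The part of striatal tissue in the Scn4b values was not tested.

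Scn2b lies next to Scn4b on chromosome 9, with 0 coding genes between. It encodes a beta subunit bound to the pore by a disulphide bond. Its levels were 10.26 log2 in the control array and 10.14, 10.10 and 9.96 at 0.5M, 1M and 2M, lower in each tumour-bearing array and in the order of cell number. The slope was -0.14 ± 0.06 log2 per 1M cells (SE, limma unadjusted p = 0.045, adjusted p = 0.761), and the mean difference -0.19 ± 0.10 log2 (limma adjusted p = 0.54, 95% interval -0.45 to 0.07). The unadjusted p was 0.071 without the filter, 0.0505 with cyclic loess, 0.114 without the 0.5M array and 0.213 without the 2M array. Scn3b read 10.52, 10.55, 10.31 and 10.52 log2, at control in 2 arrays and lower at 1M (mean -0.06 ± 0.13, limma adjusted p = 0.877).

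The upstream sequences of this adjacent pair are shown because the genes lie side by side and had the lowest trend p of the channel genes. They are the 250 bases before the annotated start from RefSeq, build GRCm38.p6, on the plus strand, at chr9:45117626-45117875 for Scn2b and chr9:45138374-45138623 for Scn4b. Capitals mark AGAACA on either strand, a hexamer that glucocorticoid response elements contain.
Scn2b: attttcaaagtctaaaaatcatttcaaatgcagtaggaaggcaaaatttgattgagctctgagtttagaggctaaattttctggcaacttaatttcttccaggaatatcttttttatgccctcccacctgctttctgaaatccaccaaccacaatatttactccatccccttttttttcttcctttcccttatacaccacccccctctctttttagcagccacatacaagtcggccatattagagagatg
Scn4b: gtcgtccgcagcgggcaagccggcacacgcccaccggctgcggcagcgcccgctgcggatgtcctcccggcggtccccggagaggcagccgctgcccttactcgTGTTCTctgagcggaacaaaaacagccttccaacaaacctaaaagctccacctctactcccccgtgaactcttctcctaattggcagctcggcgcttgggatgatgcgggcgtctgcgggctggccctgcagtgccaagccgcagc

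The 2 windows differed in composition, with 38.4% G and C and 1 CpG for Scn2b and 66% and 23 CpGs for Scn4b, where the median of all 32851 such windows was 52.4% and 6. The hexamer was found once in the Scn4b window and not in the Scn2b window, and 16.1% of all windows held it. Promoters were listed for 27 of the 35 channel genes, with 37 windows, of which 7 (18.9%) held it. These matches are letters in a window and show no binding.

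The calcium channel pore genes of the P/Q, N and R types, which trigger transmitter release, lay close to control in every array. Cacna1a (P/Q type) read 10.21, 10.23, 10.27 and 10.22 log2 in the control, 0.5M, 1M and 2M arrays. Cacna1b (N type) read 10.33, 10.37, 10.34 and 10.32, and Cacna1e (R type) 10.16, 10.25, 10.14 and 10.19. None of the 9 differences exceeded 0.10 log2 in size. The mean differences were 0.03 ± 0.03, 0.02 ± 0.02 and 0.04 ± 0.06 log2, with limma adjusted p of 0.923, 0.957 and 0.909. Their 95% intervals lay within -0.20 to 0.27 log2.

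L-type channels couple electrical activity to gene regulation and support pacemaking. Cacna1c, the main brain L-type gene, read 9.40 log2 in sham mice, then 9.42, 9.38 and 9.46 with rising cell number (mean difference 0.02 ± 0.04, limma adjusted p = 0.95). Cacna1d, the L-type gene of low-voltage pacemaking, read 8.56, 8.70, 8.59 and 8.78, above control in each tumour-bearing array (0.14 ± 0.10 log2, limma adjusted p = 0.657, 95% interval -0.12 to 0.39).

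T-type genes, which support burst firing, lay a little above control in most arrays. Cacna1g read 9.71, 9.78, 9.82 and 9.74 log2, Cacna1h 8.71, 8.84, 8.78 and 8.70, and Cacna1i 8.72, 8.80, 8.78 and 8.74. The mean differences were 0.07 ± 0.04, 0.06 ± 0.07 and 0.06 ± 0.03 log2, and none passed limma (adjusted p = 0.81, 0.85 and 0.837). At 0.5M all 8 tested calcium pore genes lay above control, where 51.5% of all tested genes did, and at 1M and 2M 6 of 8 did, beside 56.9% and 51.8%.

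The alpha2delta genes went in different directions. Cacna2d1, which encodes the gabapentin-binding subunit, read 11.26 log2 in the control array and 11.12, 10.69 and 10.95 at 0.5M, 1M and 2M. Every tumour-bearing array lay below control, the 1M array lowest at a 1.49-fold difference. The mean difference was -0.35 ± 0.22 log2 (limma adjusted p = 0.488, 95% interval -0.74 to 0.05), the lowest mean among the 35 genes. Without the 1M array it was -0.23, and without the 0.5M array -0.45 (unadjusted p = 0.0156, limma adjusted p = 0.279). Its second probe set read 10.10, 10.17, 9.92 and 10.01 log2 and lay above control at 0.5M. With both probe sets averaged the mean difference was -0.21 log2 (limma adjusted p = 0.607).

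The window upstream of Cacna2d1 is shown because this gene had the largest difference. It holds the 250 bases before the annotated start at chr5:15934441-15934690, build GRCm38.p6, plus strand, from RefSeq, and capitals mark GC boxes, GGGCGG on either strand, some of which overlap or adjoin.
Cacna2d1: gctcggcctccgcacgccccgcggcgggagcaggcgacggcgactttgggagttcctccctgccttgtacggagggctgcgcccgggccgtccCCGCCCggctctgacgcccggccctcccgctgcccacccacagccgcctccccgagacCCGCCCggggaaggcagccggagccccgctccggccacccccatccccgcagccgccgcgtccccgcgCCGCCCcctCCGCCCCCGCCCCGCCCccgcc
The window held 6 GC boxes, 82.4% G and C and 36 CpGs, and none of the other motifs searched. A Cacnb4 window and a Cacna1c window also held 6 GC boxes. A GC box was present in 32.7% of all windows and in 14 of the 37 windows of channel genes (37.8%).

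Cacna2d2, the alpha2delta gene of cerebellar Purkinje cells among other neurons, read 10.18, 10.31, 10.36 and 10.26 log2, above control in all 3 arrays (0.13 ± 0.05, limma adjusted p = 0.631). Cacna2d3 read 8.81, 9.09, 8.94 and 8.81 log2, highest at 0.5M and level with control at 2M (0.13 ± 0.14, limma adjusted p = 0.719). The difference between Cacna2d1 and these genes was not tested.

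Among the beta subunit genes, which chaperone the pore to the membrane, Cacnb4 read 10.54 log2 in the control array and 10.47, 10.29 and 10.31 at 0.5M, 1M and 2M. It lay below control in each, by -0.19 ± 0.10 log2 on average (limma adjusted p = 0.554, 95% interval -0.45 to 0.08). Cacnb1 read 9.36, 9.39, 9.39 and 9.29 log2, on both sides of control (limma adjusted p = 0.991).

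**Figure D3:**
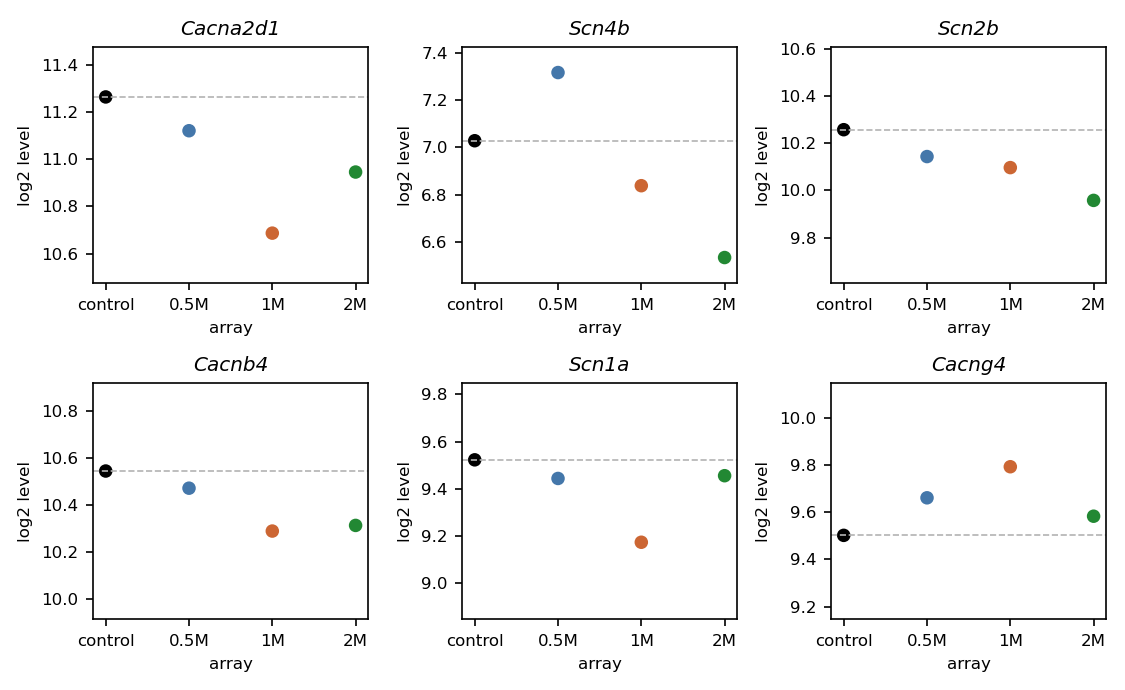
Log2 level (vertical axis, each panel spanning 1 log2) of Cacna2d1, Scn4b, Scn2b, Cacnb4, Scn1a and Cacng4 in the control, 0.5M, 1M and 2M arrays, 1 point per array, with a dashed line at the control. Cacna2d1, Scn2b, Cacnb4 and Scn1a lie below the line in all 3 tumour-bearing arrays, Cacng4 above it in all 3, and Scn4b on both sides.

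Gamma subunit genes showed no common direction. Cacng4, a partner of AMPA receptors, read 9.50, 9.66, 9.79 and 9.58 log2, above control in each tumour-bearing array (0.18 ± 0.11, limma adjusted p = 0.581, 95% interval -0.09 to 0.44). Cacng3 and Cacng8, AMPA receptor partners best known from cortex and hippocampus, lay below control in all 3 arrays, Cacng3 by -0.01, -0.24 and -0.16 log2 and Cacng8 by -0.08, -0.11 and -0.20 (limma adjusted p = 0.687 and 0.636). Cacng5 differed by 0.05, 0.05 and 0.09 log2 and Cacng7 by -0.12, 0.09 and 0.02. Cacng1, the skeletal muscle gamma gene, differed by -0.06, 0.05 and 0.05. None of these passed limma (adjusted p = 0.82 for Cacng5, 0.995 for Cacng7 and 0.971 for Cacng1).

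Cacng2, the stargazin gene, had 2 probe sets that disagreed in direction. The one with the higher mean read 10.52, 10.58, 10.65 and 10.62 log2, above control in 3 of 3 arrays (0.10 ± 0.04, limma adjusted p = 0.724). The other read 10.13, 10.03, 9.86 and 9.84, below control in 3 of 3. A direction for this gene cannot be given.

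The 6 channel genes below the filter are known mainly from tissues other than brain, apart from Cacnb2, and were not tested. Cacna1s, the skeletal muscle pore gene, read 5.55 log2 in sham mice, then 5.76, 5.86 and 5.81 with rising cell number. Cacna2d4 and Cacna1f, both best known from retina, read 6.35, 6.45, 6.79 and 6.55, and 5.36, 5.30, 5.58 and 5.52. Cacnb2, a beta gene of heart and brain, read 5.68, 5.71, 6.03 and 5.96. Of the sensory neuron pore genes, Scn10a read 4.91, 4.84, 5.30 and 5.16 and its neighbour Scn11a 4.66, 4.61, 4.59 and 4.64.

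At 1M 4 of these 6 genes were at least 0.25 log2 above control, and 30.4% of the 7975 genes below the filter were too. The median difference of all genes below the filter was -0.03 at 0.5M, 0.14 at 1M and 0.07 at 2M (log2), and 0.005, 0.04 and 0.007 for genes past it. The median of the 6 channel genes was -0.01 at 0.5M, 0.33 at 1M and 0.22 at 2M (log2), farther above control at 1M and 2M than that of all low-level genes. Whether these 6 differ from other low-level genes was not tested. Skeletal muscle markers averaged 5.99 log2 in sham mice, then 5.99, 6.20 and 6.15 with rising cell number (11 genes, 4 higher in all 3 arrays). Sensory ganglion markers averaged 6.18 log2 in sham mice, then 6.15, 6.26 and 6.24 (7 genes, 3 higher in all 3 arrays). Of all genes, 33.2% were higher in all 3. The part of muscle or ganglion RNA in the Cacna1s and Scn10a values was not tested.

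**Figure D4:**
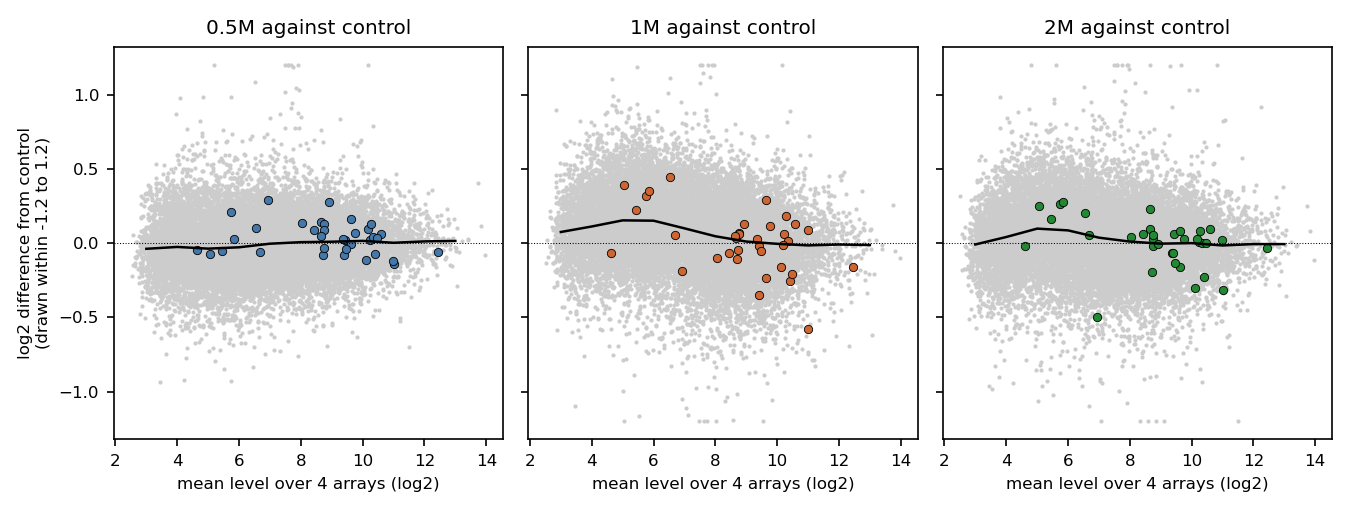
Log2 difference from control (vertical axis, drawn within -1.2 to 1.2) against the mean level over the 4 arrays (horizontal axis, log2) for 0.5M, 1M and 2M, with all genes in grey, channel genes in colour and the black line giving the median of all genes in bins 1 log2 wide. At 1M the median lies above 0 at low levels, where the low-level channel genes also lie, and near 0 at high levels.

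Genes that work with these channels did not pass limma either, though some calcium channel partners lay farther from control than most channel genes. Of the sodium channel partners, which include the intracellular fibroblast growth factor homologues and the leak channel complex, 12 of 12 were tested and 0 passed limma in either comparison. Their median differences were 0.08, 0.07 and 0.08 log2 in order of cell number, with 6 above control in all 3 arrays and 0 below, beside 33.4% and 27.3% of all tested genes. Gpd1l differed by 0.19 ± 0.13 log2, Fgf12 by 0.15 ± 0.03, Unc80 by 0.11 ± 0.07 and Nalcn, the leak channel pore, by 0.11 ± 0.03 on average.

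Of 22 calcium channel partners 17 were tested and 0 passed limma over all genes. At an unadjusted p under 0.05 Camk2b and Akap9 were higher and Calm2 lower in the tumour comparison, beside 10.8% of all genes; Akap9 was named after its value was seen. Calm2, a calmodulin gene, differed from control by -0.25, -0.31 and -0.41 log2 at 0.5M, 1M and 2M (mean -0.33 ± 0.08, limma adjusted p = 0.383). Camk2b, a calmodulin-dependent kinase, differed by 0.28 ± 0.06 log2 (limma adjusted p = 0.402). Stac2, an adaptor of L-type channels, differed by -0.32 ± 0.18 log2 (limma adjusted p = 0.479), and Cabp5, below the filter, by 0.31 ± 0.23, with 0.51 at 1M. Of the 22 partners 8 lay above control in all 3 arrays and 4 below, beside 33.2% and 22.5% of all genes.

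Scaffold and adhesion genes of the axon initial segment and the node of Ranvier, where sodium channels cluster, had median differences of 0.03, -0.02 and -0.01 log2 over 10 genes, and 0 passed limma or had an unadjusted p under 0.05. Ank3, the scaffold that anchors sodium channels, differed by -0.09 ± 0.04 log2 and Cntn2, an axonal adhesion molecule, by 0.24 ± 0.12. Neuronal markers gave medians of -0.004, -0.07 and 0.01 log2 over 12 genes. Their list mean was 10.65 log2 in sham mice, then 10.62, 10.61 and 10.60 with rising cell number. Of the 12, 2 lay above control in all 3 arrays and 5 below, beside 33.4% and 27.3% of all tested genes. Farthest from control were Nefm, at -0.41 ± 0.13 log2 on average (limma adjusted p = 0.375), and Nefh, at 0.23 ± 0.19 (limma adjusted p = 0.603). The part of neuronal content in the channel values was not tested.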

How the data were processed

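Values in the deposited table are on the log2 scale, 1 per probe set in each array; the submitters' processing notes name RMA. Its version, software, genome build and input arrays: not given in the sources used here. RMA aligns the intensity distributions of arrays, so a change common to all transcripts is removed. Of 35556 probe sets, 21789 had 1 gene symbol in the platform annotation. Genes were tested with limma 3.58.1 (R 4.3.3; lmFit, then eBayes, two-sided, Benjamini-Hochberg over 11963 genes, threshold 0.05), as the 3 tumour-bearing arrays against control and as a slope with cell number; the fits were tested on simulated data. The spread was that between cell numbers, the single control array being taken to vary alike. The number of arrays limits the precision. Full values were planned for channel genes with a difference of 0.25 log2 or more in any array, with an unadjusted p under 0.05, or among 12 main brain pore genes, and for up to 4 genes of each partner or marker list. The channel genes and lists were chosen with earlier results of these data known. Table columns without a sample numbered 0. Python 3.11.15 with pandas 2.3.3, numpy 2.4.6 and matplotlib 3.10.9 made the other values and plots.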

Additional observations from a re-analysis of the deposited data

Results flagged for a closer look

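Scn4b, the sodium channel beta gene, lay above control at 0.5M and below it at 1M and 2M. The 0.5M and 2M arrays were 0.78 log2 apart, on opposite sides of the control. Each is 1 array, and the difference between them was not tested.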

How the results depend on the processing

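No channel gene passed the adjusted limma threshold in either comparison under any alternative run, and the lowest adjusted p of a channel gene in the trend was 0.145, for Cacna2d1 without the 2M array. At an unadjusted p under 0.05, leaving out 1 tumour-bearing array gave 0 to 1 genes in the tumour comparison and 1 to 3 in the trend, and the trend count of 2 became 1 without the filter, with the 60th percentile filter and with cyclic loess. Without the 2M array the trend genes were others than Scn2b and Scn4b. They were Cacna2d1 and Scn1a, with slopes of -0.58 and -0.35 log2 per 1M cells, and Cacng4, with 0.29. With a threshold of 0.25 log2, 2 genes were higher at 0.5M. At 1M 5 were higher and 3 lower, and at 2M 2 higher and 3 lower. With 1 log2, or with probe sets averaged, the lower count at 1M was 0, and with cyclic loess 1 gene was lower at 2M. At least 0.25 log2 from control in all 3 arrays, 0 genes were higher and 0 lower. The median of the 35 mean differences, 0.024 log2, was 0.020 with probe sets averaged and 0.020 to 0.039 without 1 array. The median at 0.5M was 0.017 with cyclic loess and 0.058 with arrays centred on their median. At 1M it was 0.011 with probe sets averaged, 0.033 with cyclic loess and 0.0057 centred, and at 2M 0.021, 0.019 and 0.022. Among the 22 channel genes given in full, the mean differences of Scn2a with probe sets averaged (-0.20) and of Cacna1s with cyclic loess (0.21) moved by more than their spread over arrays. Filters and the choice of eBayes cannot move a mean difference. The cause of these shifts was not tested. The control array could not be left out. No paired analysis was possible because each group is 1 array.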

Other observations

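A further 3 probe sets matched several sodium channel pore genes and entered no comparison. The probe set shared by Scn2a, Scn9a and Scn3a read 7.89 log2 in the control array and 7.73, 6.81 and 7.64 at 0.5M, 1M and 2M, lowest at 1M. The one shared by Scn3a and Scn1a read 9.66, 9.51, 9.28 and 9.40, and that shared by Scn9a and Scn3a 9.89, 9.86, 9.79 and 9.79. All 3 lay below control in each tumour-bearing array.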
